A study of Mus musculus with 8 samples.

Results

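The SLAM family is a set of surface receptors of blood cells, and the 8 genes described here are Slamf1, Slamf6, Slamf7, Ly9, Cd84, Cd244 and Cd48 with the adaptor gene Sh2d1a, out of 19938 genes with a single symbol on the array. They were chosen by symbol, as the probe sets annotated with exactly 1 member, and each of the 8 was read by 1 probe set. Cd244 is listed on the array under its current symbol, Cd244a. Gene expression was measured on 8 arrays in 4 groups of 2. The titles call them biological replicates without naming animals, so the p-values measure the spread between these arrays, which may be partly technical. The groups were Tet2-deficient Th17 cells from CD2(Cre)Tet2(f/f) mice, wild-type Th17 cells from Tet2(f/f) mice, Tet2-deficient Th1 cells from CD2(Cre)Tet2(f/f) mice and wild-type Th1 cells from Tet2(f/f) mice. All mice therefore carried the floxed Tet2 allele and only the Tet2-deficient groups carried the Cre, which is named for CD2, a surface molecule of lymphocytes. Age, sex, strain background, pooling of animals and culture conditions are not given in the sources used here. The series asks how Tet2, which converts 5-methylcytosine to 5-hydroxymethylcytosine, bears on the differentiation of T helper subsets.

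SLAM receptors sit on T, B, natural killer and antigen-presenting cells, and most of them bind a second copy of themselves on a neighbouring cell. Their tails carry tyrosine motifs that, once phosphorylated, dock SAP, the small SH2-domain adaptor encoded by Sh2d1a, and SAP in turn recruits the kinase Fyn. Without SAP the same motifs can recruit phosphatases. In mice SAP is known for the help that T cells give to B cells in germinal centres and for the development of natural killer T cells, and in humans its loss causes X-linked lymphoproliferative disease. Cd244 differs from the other receptors in binding Cd48, which is held in the membrane by a lipid anchor and has no signalling tail.

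The values are log2 probe-set signals, in which 1 unit is a doubling. A ± gives the standard error of a fold change on the log2 scale, or the SD where this is said, and n = 2 arrays per group. Differences were tested with limma across all 19938 genes, and a gene was called at a Benjamini-Hochberg adjusted p under 0.05. As checks of the labels, 5 of the 5 measured Th17 markers were higher in Th17 than in Th1 cells in both genotypes, Il17a by 3.07 ± 0.16 in Tet2-deficient and 3.78 ± 0.16 in wild-type cells (log2, limma adjusted p = 3.34e-07 and 4.49e-08). Of the 5 measured Th1 markers, 3 were called lower in Th17 than in Th1 cells in each genotype. In Tet2-deficient cells 1 of the 5 had a fold change above 0. Among them, Ifng had -4.35 ± 0.14 in Tet2-deficient and -5.69 ± 0.14 in wild-type cells (limma adjusted p = 3.00e-09 and 2.24e-10). The T cell markers, among them Cd3e and Cd4, were above the array median on every array in 6 of 6 cases. The Tet2 probe set did not differ between genotypes past the test in either subset, with log2 fold changes of -0.14 in Th17 and -0.03 in Th1 cells, and whether its probes lie in the deleted part was not examined. The Th17 arrays further differed in the signal of Xist, from which a share of female RNA was estimated. That estimate rests on Xist alone and takes the highest array as wholly female, and the labels do not give sex. The Y-linked gene Eif2s3y was also listed as a check, but it was not used in the estimate. The share of female RNA, read from the linear Xist signal with the highest array set to 100%, was 14.7% and 100% in Tet2-deficient Th17 cells, 0.187% and 42.9% in wild-type Th17 cells and between -0.130% and 0.105% on the 4 Th1 arrays.

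Of the 8 genes, 7 lie close together on mouse chromosome 1 in the order Cd244, Ly9, Slamf7, Cd48, Slamf1, Cd84 and Slamf6, and Sh2d1a lies on chromosome X. The stretch around each start site is shown for the members that differed between subsets, because Tet2 acts on methylated cytosine in the CG dinucleotide. RefSeq promoters of build GRCm38.p6, from 250 bases before to 50 bases after the start, were matched for 6 of the 8 members, Ly9 and Sh2d1a having no entry in the table used. The windows are chr1:171917212-171917511 on the plus strand for Slamf6, chr1:171839447-171839746 on the plus strand for Cd84, chr1:171681742-171682041 on the plus strand for Cd48 and chr1:171648950-171649249 on the minus strand for Slamf7, each written 5′ to 3′ along the gene with every CG in capitals.
Slamf6: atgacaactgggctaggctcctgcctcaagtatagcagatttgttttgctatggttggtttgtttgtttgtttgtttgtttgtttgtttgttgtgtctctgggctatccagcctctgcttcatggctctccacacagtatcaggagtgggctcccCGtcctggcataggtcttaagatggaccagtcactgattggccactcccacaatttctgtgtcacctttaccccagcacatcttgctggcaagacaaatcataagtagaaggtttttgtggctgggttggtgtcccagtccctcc
Cd84: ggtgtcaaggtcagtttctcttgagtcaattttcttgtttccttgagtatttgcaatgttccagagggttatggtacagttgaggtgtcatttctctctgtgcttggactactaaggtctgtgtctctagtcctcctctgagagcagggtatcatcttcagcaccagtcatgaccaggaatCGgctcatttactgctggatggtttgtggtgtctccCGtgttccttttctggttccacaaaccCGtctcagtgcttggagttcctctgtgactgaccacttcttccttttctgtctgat
Cd48: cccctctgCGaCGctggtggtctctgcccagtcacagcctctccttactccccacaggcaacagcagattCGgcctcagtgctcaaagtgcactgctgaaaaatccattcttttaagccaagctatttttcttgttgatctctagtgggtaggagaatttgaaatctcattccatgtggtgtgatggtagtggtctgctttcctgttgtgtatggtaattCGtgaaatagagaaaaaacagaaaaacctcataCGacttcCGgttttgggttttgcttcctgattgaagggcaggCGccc
Slamf7: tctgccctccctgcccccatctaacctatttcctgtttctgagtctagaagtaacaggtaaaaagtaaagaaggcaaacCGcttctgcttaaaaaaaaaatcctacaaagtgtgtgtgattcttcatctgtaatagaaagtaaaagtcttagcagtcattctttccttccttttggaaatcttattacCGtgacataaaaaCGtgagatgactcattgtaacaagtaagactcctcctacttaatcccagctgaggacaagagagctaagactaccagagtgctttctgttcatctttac

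The CG dinucleotide was less frequent than the median in these windows, except in that of Cd48. Slamf6 held 1 CG, Cd84 and Slamf7 held 3 each and Cd48 held 7, against a median of 7 over 32851 promoters of the same length. Of those promoters, 5.43% held fewer than Slamf6. Cd244 held 2 and Slamf1 held 4. Short motifs of T helper transcription factors were searched on both strands. The ROR half-site AGGTCA, held by 16.3% of all promoters, was present in Cd84 alone of the 6. The T-box half-site GGTGTGA, held by 3.98%, was present in Cd48 alone. The AP-1 motif TGANTCA, held by 7.81%, was present in Slamf7, Cd244 and Cd84. These are matches of letters, and methylation of these windows was not measured in the files used here.

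**Figure D1:**
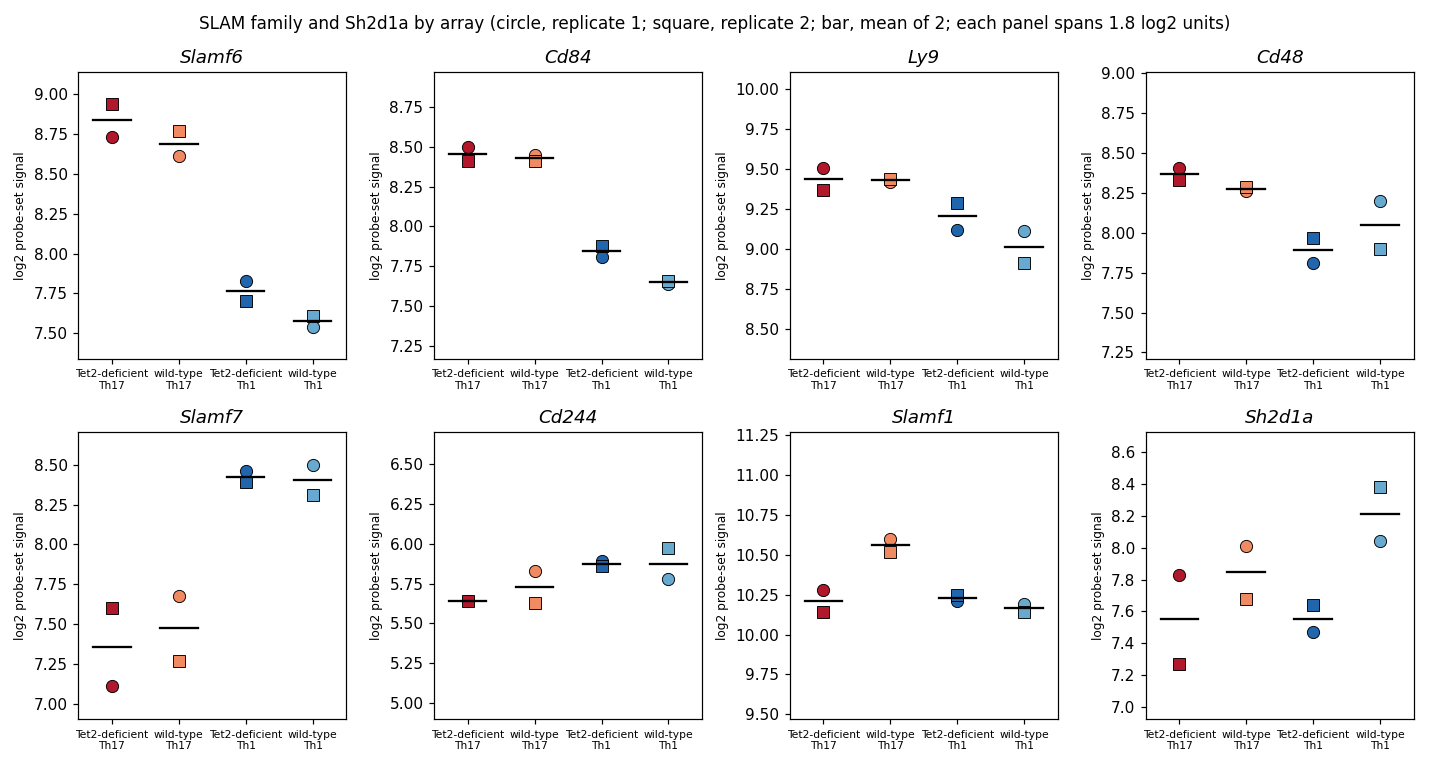
Log2 probe-set signal (vertical axis) of each of the 8 genes on the 8 arrays, by group (horizontal axis), with circles for replicate 1, squares for replicate 2 and a bar for the mean of 2. Slamf6 lies between 8.61 and 8.94 on the 4 Th17 arrays and between 7.54 and 7.83 on the 4 Th1 arrays, and Slamf7 runs the other way, from 7.11 to 7.68 in Th17 and from 8.31 to 8.50 in Th1 cells.

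Members differed between subsets, and none passed between genotypes. With both genotypes averaged, 5 of the 8 genes were called between Th17 and Th1 cells, against 22.2% of all 19938 genes. Slamf6, Cd84, Cd48 and Ly9 were higher in Th17 cells, 4 of 8 against 12.4% of all genes called higher, and Slamf7 was lower, 1 of 8 against 9.79%. These shares include genes with low signals. Over all genes 4417 were called, 2465 of them higher. With only genes at or above the median mean signal tested, 3283 were called, 2427 of them higher. All members but Cd244 belong to that set, so the share over all genes is a low yardstick. The shares below for neighbours and gene lists have the same limit. The median log2 fold change of the 8 was 0.26, beside -0.04 over all genes. The same 5 genes had no overlap between the 4 Th17 and the 4 Th1 arrays, which held for 24.6% of all genes. At an unadjusted p under 0.05 there were 7 of 8, against 35.4% of all genes. Among Tet2-deficient cells 4 of the 8 were called, against 10.1% of all genes, with 3 higher (6.32%) and 1 lower (3.79%). At an unadjusted p under 0.05 there were also 4, against 24.8%, and 6 did not overlap, against 57.5%. Among wild-type cells 3 of the 8 were called, against 8.40%, with 2 higher (4.97%) and 1 lower (3.44%). There 5 had an unadjusted p under 0.05, against 24.5%, and 7 did not overlap, against 52.2%. With the genotypes averaged the count was 3 after a second quantile normalization, with the female share as a covariate or with all 35556 probe sets tested, and in wild-type cells it was 5 with low signals filtered out or arrays centred on their medians.

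Slamf6 (probe set 10351691), also known as Ly108, is a receptor that binds itself and recruits SAP strongly. Its signal was 8.73 and 8.94 on the Tet2-deficient Th17 arrays against 7.83 and 7.70 on the Tet2-deficient Th1 arrays, and 8.61 and 8.77 in wild-type Th17 cells against 7.54 and 7.61 in wild-type Th1 cells. Every Th17 array was above every Th1 array. Slamf6 was 2.11-fold higher in Th17 than in Th1 cells among Tet2-deficient cells (log2 1.07 ± 0.12, 95% interval 0.80 to 1.34, limma adjusted p = 0.000181). It was 2.16-fold higher among wild-type cells (1.11 ± 0.12, 0.84 to 1.38, adjusted p = 0.000147). The fold of Slamf6 was larger than that of 99.0% of all genes when both genotypes were averaged.

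Cd84 (probe set 10351679), another receptor that binds itself and docks SAP, lies next to Slamf6. It read 8.50 and 8.41 on the Tet2-deficient Th17 arrays against 7.81 and 7.88 on the Tet2-deficient Th1 arrays, and 8.45 and 8.41 in wild-type Th17 cells against 7.64 and 7.66 in wild-type Th1 cells. The subsets did not overlap, and the 4 Th17 arrays lay between 8.41 and 8.50. Cd84 was 1.53-fold higher in Th17 cells among Tet2-deficient cells (0.61 ± 0.11, adjusted p = 0.00403) and 1.72-fold higher among wild-type cells (0.79 ± 0.11, adjusted p = 0.000889, limma). Without Tet2-deficient Th17 replicate 1 the first of these calls ended (0.57, adjusted p = 0.0551).

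Cd48 (probe set 10351658), the ligand of Cd244 and in mice also of Cd2, showed a smaller difference. Its signal was 8.41 and 8.33 on the Tet2-deficient Th17 arrays against 7.81 and 7.97 on the Tet2-deficient Th1 arrays, and 8.26 and 8.29 in wild-type Th17 cells against 8.20 and 7.90 in wild-type Th1 cells. The 4 Th17 arrays were above the 4 Th1 arrays, and wild-type Th1 replicate 1 came closest to them. Cd48 was 1.40-fold higher in Th17 cells among Tet2-deficient cells (0.48 ± 0.13, adjusted p = 0.0351, limma), while the difference among wild-type cells did not pass (0.23 ± 0.13, 95% interval -0.05 to 0.51, adjusted p = 0.306). The difference between these effects was 0.25 (95% interval -0.15 to 0.65, adjusted p = 0.999), so the genotypes were not shown to differ. The Cd48 call in Tet2-deficient cells ended when any of its 4 arrays was left out (0.40 to 0.57, adjusted p up to 0.219) and with a replicate block (0.48, adjusted p = 0.0548). It also ended with all probe sets tested (0.48, adjusted p = 0.116), after a second quantile normalization (0.35, adjusted p = 0.152) and with female share added as a covariate (0.52, adjusted p = 0.173), each leaving 3 of the 8 members called in Tet2-deficient cells.

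Ly9 (probe set 10360158), known as CD229 and also self-binding, had 9.51 and 9.37 on the Tet2-deficient Th17 arrays against 9.12 and 9.29 on the Tet2-deficient Th1 arrays, and 9.42 and 9.44 in wild-type Th17 cells against 9.11 and 8.91 in wild-type Th1 cells. The subsets did not overlap, but Tet2-deficient Th1 replicate 2 came close to the Th17 arrays. Averaged over genotypes Ly9 was 1.25-fold higher in Th17 cells (0.32 ± 0.09, adjusted p = 0.0218, limma). Within a genotype it did not pass, with 0.23 in Tet2-deficient and 0.42 in wild-type cells (adjusted p = 0.285 and 0.0632), though the wild-type difference passed with a filter on low signal (adjusted p = 0.0447) and with centred arrays (0.45, adjusted p = 0.0469). The averaged differences of Ly9 and Cd48 were the least stable, and neither passed with all probe sets tested (adjusted p = 0.0534 and 0.0545), after a second quantile normalization (0.18 and 0.22, adjusted p = 0.200 and 0.146) or with the female share as a covariate (0.38 for both, adjusted p = 0.0881 and 0.0882). Of the arrays left out in turn, 5 ended the Ly9 call (0.28 to 0.33, adjusted p up to 0.101), namely both replicates of wild-type Th17 and replicates 1 of Tet2-deficient Th17, 1 of Tet2-deficient Th1 and 2 of wild-type Th1, and replicates 1 of Tet2-deficient Th17, 2 of wild-type Th17 and 1 of Tet2-deficient Th1 ended that of Cd48 (0.31 to 0.35, adjusted p up to 0.0662).

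Slamf7 (probe set 10360173), or CRACC, a self-binding receptor that works through the related adaptor EAT-2 in place of SAP, was the only member called lower in Th17 cells. It read 7.11 and 7.60 on the Tet2-deficient Th17 arrays against 8.46 and 8.39 on the Tet2-deficient Th1 arrays, and 7.68 and 7.27 in wild-type Th17 cells against 8.50 and 8.31 in wild-type Th1 cells. All Th17 arrays were below all Th1 arrays, and the Th17 arrays were more spread, with SDs of 0.35 in Tet2-deficient and 0.29 in wild-type Th17 cells against 0.04 in Tet2-deficient and 0.13 in wild-type Th1 cells (n = 2 each). Slamf7 was 2.09-fold lower in Th17 than in Th1 cells among Tet2-deficient cells (-1.07 ± 0.17, adjusted p = 0.00197) and 1.91-fold lower among wild-type cells (-0.93 ± 0.17, adjusted p = 0.00561, limma). The wild-type call ended without wild-type Th17 replicate 2 (-0.73, adjusted p = 0.0725) and with all probe sets tested (-0.93, adjusted p = 0.0780), each leaving 2 members called in wild-type cells. Slamf7 stands between Ly9 and Cd48 on the chromosome, both of which were higher in Th17 cells when genotypes were averaged.

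Cd244 (probe set 10351644), known as 2B4 and best known from natural killer and CD8 T cells, was under the array median on all 8 arrays, from 5.63 to 5.97. Its averaged difference between subsets did not pass (-0.19 ± 0.08, adjusted p = 0.113, limma). In bulk RNA, fewer cells with a transcript and less of it per cell cannot be told apart.

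**Figure D2:**
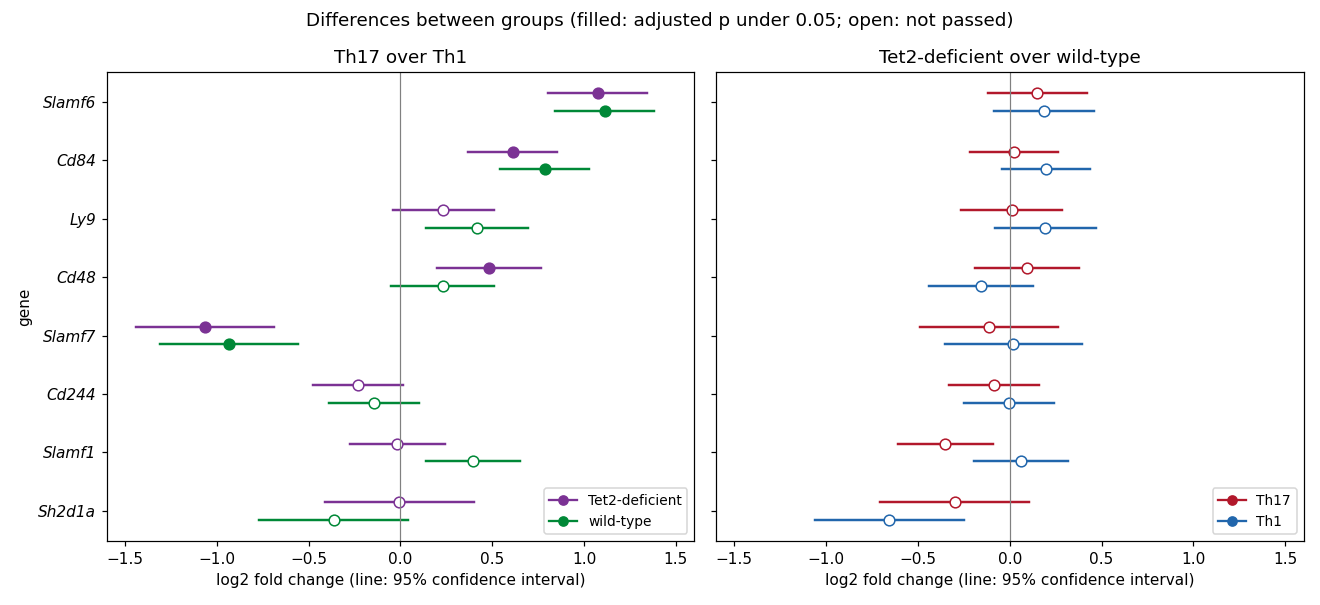
Log2 fold changes (horizontal axis) with 95% confidence intervals for the 8 genes, Th17 over Th1 on the left by genotype and Tet2-deficient over wild-type on the right by subset, filled where the adjusted p was under 0.05. Filled points occur on the left only, for Slamf6, Cd84 and Slamf7 in both genotypes and for Cd48 in Tet2-deficient cells.

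Between genotypes, no member was called. In Th17 cells 0 of the 8 passed in limma, against 0.00% of all genes, and 1 of the 8 (Slamf1) had an unadjusted p under 0.05, against 4.13% of all genes. In Th1 cells 0 passed, against 0.00502%, and 1 of the 8 (Sh2d1a) had an unadjusted p under 0.05, against 6.05%. Arrays of both genotypes did not overlap for 2 of the 8 in Th17 cells and 5 of the 8 in Th1 cells, against 32.9% and 33.3% of all genes. The median log2 fold change of the members was -0.04 in Th17 and 0.04 in Th1 cells, beside 0.01 over all genes in both.

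Sh2d1a (probe set 10599411), the adaptor gene, had the members' largest difference between genotypes, in Th1 cells. Its signal was 7.47 and 7.64 in Tet2-deficient Th1 cells against 8.04 and 8.38 in wild-type Th1 cells, without overlap. The log2 fold change was -0.66 ± 0.19 (95% interval -1.06 to -0.25, a 1.58-fold lower level), larger than that of 99.9% of all genes, and it did not pass over all genes (unadjusted p = 0.00415, adjusted p = 0.797, limma). With each array left out in turn it stayed between -0.83 and -0.48. The 4 Th1 arrays had female shares near 0, as given above, on a scale that takes their mean as 0.

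In Th17 cells Sh2d1a read 7.83 and 7.27 on the Tet2-deficient arrays and 8.01 and 7.68 on the wild-type arrays, and the genotypes overlapped. Its log2 fold change was -0.30 ± 0.19 (95% interval -0.71 to 0.11), and averaged over subsets it was -0.48 ± 0.13 (unadjusted p = 0.00342, adjusted p = 0.814, limma), where 5.48% of all genes had an unadjusted p under 0.05 and 0.00% passed. Across the 4 Th17 arrays Sh2d1a was lower the higher the female share was, with 8.01 at 0.187%, 7.83 at 14.7%, 7.68 at 42.9% and 7.27 at 100%. With female share added as a covariate, the Th17 difference was -0.05 and the Th1 difference was -0.66. The scale is anchored on the Th1 arrays, so this covariate could hardly move the Th1 difference and does not test it. Without Tet2-deficient Th17 replicate 2, the array set to 100%, the Th17 difference was -0.02. The shares also differed between the genotypes on these few arrays, and whether the female share has a part in the Sh2d1a differences was not tested. Between subsets Sh2d1a did not pass in Tet2-deficient (-0.01) or wild-type cells (-0.36, adjusted p = 0.989 and 0.257).

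**Figure D3:**
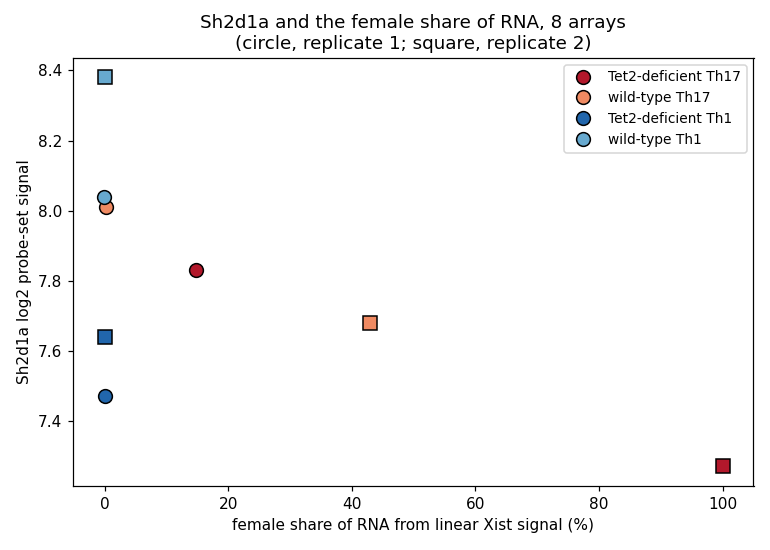
Sh2d1a log2 probe-set signal (vertical axis) against the female share of the RNA in percent (horizontal axis) for the 8 arrays, colored by group. The 4 Th17 arrays run from 8.01 at 0.187% to 7.27 at 100%, while the 4 Th1 arrays sit near 0% with the Tet2-deficient pair at 7.47 and 7.64 below the wild-type pair at 8.04 and 8.38.

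Slamf1 (probe set 10351667), or CD150, the self-binding receptor that gives the family its name, was highest in wild-type Th17 cells. It read 10.28 and 10.14 on the Tet2-deficient Th17 arrays against 10.60 and 10.52 on the wild-type Th17 arrays, and 10.21 and 10.25 in Tet2-deficient Th1 cells against 10.19 and 10.14 in wild-type Th1 cells. Both wild-type Th17 arrays were above the other 6. Of these, the Tet2-deficient Th1 arrays lay just above the wild-type Th1 arrays, and the Tet2-deficient Th17 arrays overlapped with both Th1 groups. The genotype difference of Slamf1 in Th17 cells was -0.35 ± 0.12 (95% interval -0.61 to -0.09, unadjusted p = 0.0118, adjusted p = 0.997, limma), and that in Th1 cells was 0.06 (adjusted p = 0.966). The Th17 effect minus the Th1 effect was -0.41 (95% interval -0.78 to -0.05, unadjusted p = 0.0299, adjusted p = 0.999), in a comparison where 4.48% of all genes had an unadjusted p under 0.05 and 0.00% passed. Between subsets Slamf1 had 0.39 ± 0.12 in wild-type (adjusted p = 0.0603) and -0.02 in Tet2-deficient cells (adjusted p = 0.949), neither passing. With female share added as a covariate, the Th17 genotype difference was -0.29, and with each array left out it lay between -0.42 and -0.28. The wild-type difference passed with a filter on low signal (adjusted p = 0.0414), with arrays centred on their medians (0.43, adjusted p = 0.0412) and without the intensity trend (adjusted p = 0.0428).

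The remaining members differed little between genotypes. Slamf6 had 0.15 in Th17 and 0.19 in Th1 cells, Cd84 had 0.02 and 0.20, Ly9 had 0.01 and 0.19 and Cd48 had 0.09 and -0.16. Cd84 did not overlap in Th1 cells, with 7.81 and 7.88 in Tet2-deficient against 7.64 and 7.66 in wild-type cells (95% interval -0.04 to 0.44). Slamf7 had -0.11 (95% interval -0.49 to 0.26) in Th17 and 0.02 (-0.35 to 0.40) in Th1 cells. None had an adjusted p under 0.834 in limma, which does not show equal levels, since the intervals allow differences of up to 0.49 on the log2 scale.

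Ordered by level, the 4 groups formed a common sequence for Slamf6, Cd84 and Ly9. In each of the 3, Tet2-deficient Th17 came first, overlapping with wild-type Th17, then Tet2-deficient Th1 and last wild-type Th1, with no overlap between these. The steps between genotypes did not pass. Non-overlap of the genotypes in Th1 cells held for 33.3% of all genes. For Ly9 the nearest Th1 arrays read 9.12 in Tet2-deficient and 9.11 in wild-type cells. For Slamf7 both Th1 groups came first and overlapped, and both Th17 groups followed and overlapped. For Sh2d1a wild-type Th1 stood apart at the top, and by mean wild-type Th17 followed, with the Tet2-deficient groups overlapping at the bottom. On single arrays, Tet2-deficient Th17 replicate 1 (7.83) lay above wild-type Th17 replicate 2 (7.68). Of the members, 3 spanned more than 1 log2 unit over the 8 arrays, Slamf6 (1.40), Slamf7 (1.38) and Sh2d1a (1.12).

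Among the genes that flank the SLAM cluster, 17 of 19 protein-coding neighbours within 250 kb of the outermost members were measured. Averaged over genotypes 4 of the 17 were higher in Th17 cells and 0 were lower (3 higher in Tet2-deficient and 2 in wild-type cells). Over all genes 12.4% were called higher and 9.79% lower on average, 22.2% in either direction. Within Tet2-deficient cells 6.32% of all genes were called higher, and within wild-type cells 4.97%. Nit1 (0.47 ± 0.10, adjusted p = 0.00635) and Alyref2 (0.41 ± 0.11, adjusted p = 0.0178) lie on the Cd244 side. Dcaf8 (0.54 ± 0.09, adjusted p = 0.00152) and Pea15a (0.53 ± 0.09, adjusted p = 0.00186) lie at the far end on the Slamf6 side. The nearest measured genes did not pass: Vangl2, next to Slamf6, had -0.05 and Itln1, next to Cd244, had -0.19 (adjusted p = 0.732 and 0.104, limma). No neighbour was called between genotypes in either subset, where 0.00502% of all genes were called in Th1 and 0.00% in Th17 cells.

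**Figure D4:**
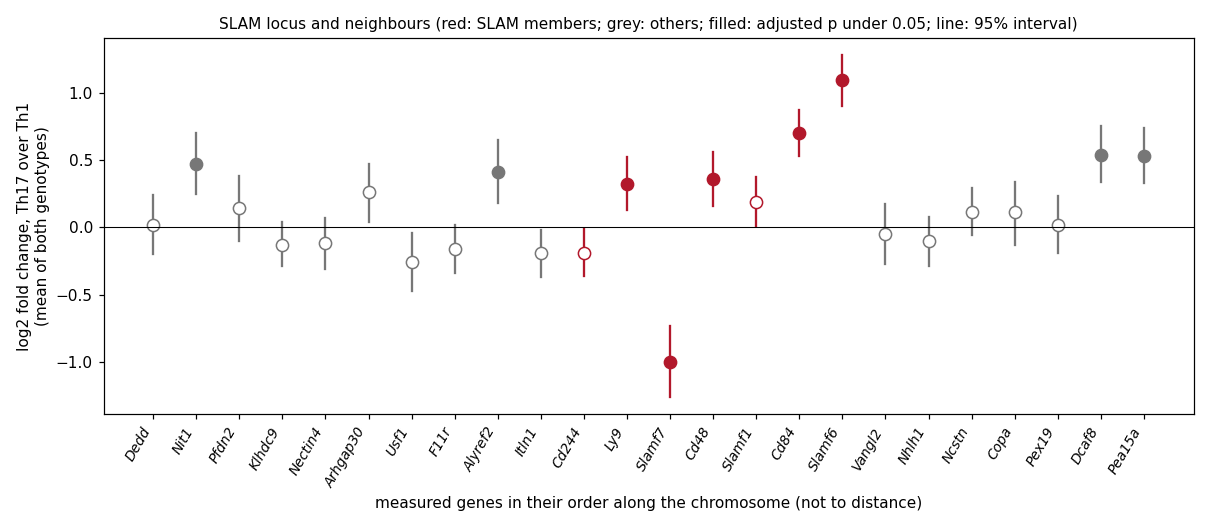
Log2 fold change of Th17 over Th1 cells with both genotypes averaged (vertical axis, lines for 95% intervals) for the measured genes in their order along the chromosome, red for SLAM members, grey for neighbours and filled where the adjusted p was under 0.05. Slamf6 (1.09) and Cd84 (0.70) stand next to each other at the upper end, and Slamf7 is the only gene called lower.

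Of 7 relatives and partner genes measured, 0 were higher and 2 were lower in Th17 cells with genotypes averaged (limma), and none passed within a genotype. Over all genes 12.4% were called higher and 9.79% lower in the averaged comparison. Within Tet2-deficient cells 10.1% were called in either direction, and within wild-type cells 8.40%. Cd2, the T cell receptor for Cd48 in mice, read 10.46 and 10.19 in Tet2-deficient and 10.55 and 10.56 in wild-type Th17 cells, against 10.80 and 10.70 in Tet2-deficient and 10.86 and 10.79 in wild-type Th1 cells. All Th17 arrays were below all Th1 arrays for Cd2 (-0.35 ± 0.09, adjusted p = 0.0170), while its ligand gene Cd48 differed the other way (0.36). Crtam, an adhesion receptor of activated T cells, was lower by the test with overlapping arrays (-0.42 ± 0.13, adjusted p = 0.0316). Sh2d1b1 and Sh2d1b2, the mouse genes for EAT-2 and its near copy, read 3.92 and 3.60 in Th17 against 3.79 and 3.74 in Th1 cells (means over genotypes), and none of Slamf8, Slamf9, Cd226 or the EAT-2 genes passed.

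Of 24 genes listed for signalling below SLAM receptors, 21 were measured and the others were not analysed here. Averaged over genotypes 9 of the 21 were higher and 3 lower in Th17 cells, against 12.4% and 9.79% of all genes, and the list median was 0.24 beside -0.04 over all genes. Within Tet2-deficient cells 4 were higher and 2 lower (6.32% and 3.79% of all genes). Within wild-type cells 4 were higher and 1 lower (4.97% and 3.44%). Rasa1, which encodes a Ras GTPase-activating protein, had the list's largest difference (1.04 ± 0.10, adjusted p = 1.79e-05). Malt1, a protease and scaffold on the route to NF-kB, had 0.67 ± 0.08 (adjusted p = 0.000123). Inpp5d, which encodes the inositol phosphatase SHIP-1, had 0.66 ± 0.11 (adjusted p = 0.00122), and Plcg1, phospholipase C gamma, had 0.62 ± 0.10 (adjusted p = 0.000857). Ptpn6, which encodes the phosphatase SHP-1, was lower (-0.51 ± 0.09, adjusted p = 0.00186). Fyn, the kinase that SAP recruits, had -0.12 and did not pass (adjusted p = 0.437). Between genotypes 0 of the 21 were called in either subset, against 0.00502% of all genes in Th1 and 0.00% in Th17 cells.

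The genes linked to follicular helper and innate-like T cells, in which SAP is best known, were listed as 17, of which 16 were measured and Tcf7 was not analysed here. Averaged over genotypes 7 were higher and 3 lower in Th17 cells, against 12.4% and 9.79% of all genes, with a list median of 0.16 beside -0.04 over all genes. Within Tet2-deficient cells 5 were higher and 2 lower (6.32% and 3.79% of all genes), and within wild-type cells 5 were higher and 1 lower (4.97% and 3.44%). Maf, a transcription factor of interleukin-producing helper cells, averaged 10.22 in Tet2-deficient Th17 against 6.69 in Tet2-deficient Th1 cells, and 10.27 in wild-type Th17 against 6.60 in wild-type Th1 cells. The subsets were far apart for Maf, by 3.60 ± 0.17 (adjusted p = 3.38e-08). The cytokine gene Il21 (1.76 ± 0.12, adjusted p = 1.03e-06), the repressor gene Bcl6 (1.52 ± 0.10, adjusted p = 6.93e-07) and the coactivator gene Pou2af1 (1.32 ± 0.12, adjusted p = 1.02e-05) were higher as well. Pdcd1, the gene of the inhibitory receptor PD-1, was lower (-0.79 ± 0.10, adjusted p = 0.000219). Between genotypes 0 of the 16 were called in either subset, against 0.00502% of all genes in Th1 and 0.00% in Th17 cells. Maf, Il21 and Bcl6 are also expressed by Th17 cells at large, so the list overlaps with the subset itself.

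**Figure D5:**
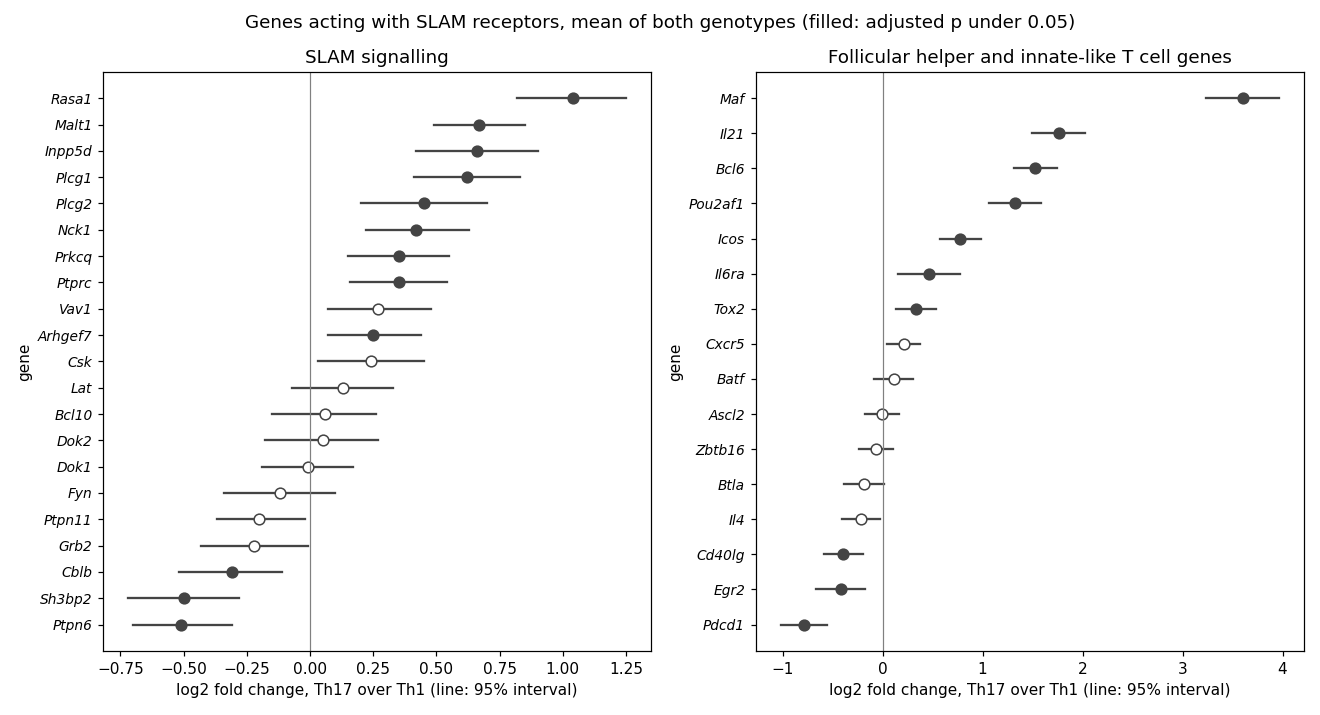
Log2 fold change of Th17 over Th1 cells with both genotypes averaged (horizontal axis, lines for 95% intervals) for the measured genes of the signalling list (left) and the follicular helper and innate-like list (right), filled where the adjusted p was under 0.05. On the left 9 genes are filled above 0 and 3 below it, led by Rasa1 (1.04), and on the right 7 and 3, led by Maf (3.60).

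SLAM receptors are also carried by other blood cells, and markers of those cells were read beside the members. The natural killer list averaged 5.36 to 5.43 log2 signal in Tet2-deficient Th17, 5.10 to 5.15 in wild-type Th17, 5.34 in Tet2-deficient Th1 and 5.40 to 5.41 in wild-type Th1 cells, with 4 or 5 of its 6 genes under the array median on every array. Of this list Eomes, a T-box factor also made by activated T cells, was lower in Th17 than in Th1 cells (-1.37 ± 0.09, adjusted p = 1.01e-06, limma), the direction of Slamf7. Klrd1, the gene of the receptor chain CD94, was higher (1.16 ± 0.14, adjusted p = 0.000140), with 7.25 and 8.07 in Tet2-deficient against 6.30 and 6.51 in wild-type Th17 cells (adjusted p = 0.183 between genotypes). The CD8 list averaged 6.19 to 6.55, and Cd8b1 was lower in Th17 cells (-0.31 ± 0.09, adjusted p = 0.0217, limma). On the wild-type Th1 arrays 1 of its 2 genes was under the array median, and on all other arrays 2 were. The B cell list averaged 5.25 to 5.52 with at least 4 of 5 genes under the median. The myeloid and dendritic list averaged 5.58 to 5.84 with 7 of 8 under the median on every array. Of its 8 genes 2 were called lower in Th17 cells, against 9.79% of all genes. The part of these cells in the differences of the SLAM genes was not tested.

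Members resembled each other in their course over the 8 arrays mainly where they separated the subsets, given here as a description across arrays that fall into 2 subsets. Pearson's r was 0.97 between Slamf6 and Cd84, 0.92 between Ly9 and Cd84 and -0.92 between Slamf6 and Slamf7. Sh2d1a followed no other member closely, with values between -0.45 (Ly9) and 0.49 (Cd244), and Slamf1 reached 0.59 with Ly9 and Cd84. Among 18616 genes the one most like Slamf6 was Klrb1f (r = 0.997), those most like Cd84 were Plekha1, Acadm and Itm2a (r = 0.993 each) and the one most like Slamf7 was Taar7d (r = 0.991). Ly9 was most like Derl3 and Cd48 most like Zfp637 (r = 0.991 each), and Cd244 was most like Atf5 (r = 0.989). Slamf1, which stood out in wild-type Th17 cells, was most like Fnip1 (r = 0.979) and Il10 (r = 0.971), the gene of an anti-inflammatory cytokine. Sh2d1a was most like Dr1 (r = 0.957) and Blnk (r = 0.948).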

How the data were processed

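RNA from 8 samples of mouse Th1 and Th17 cells was hybridized to Affymetrix whole-transcript arrays. The deposited values are log2 probe-set signals. GCOS, RMA and Affymetrix Expression Console are named in the submitters' processing notes, without versions or order, and the values were used as they stood. RMA pulls arrays to one distribution, which can shrink shifts shared by many genes. Arrays carry no counting depth, and their number limits the precision.

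Probe sets with 1 symbol were kept, and for the 999 genes with several the one with the highest mean was used, leaving 19938 of 35556 probe sets. limma 3.58.1 (R 4.3.3) was fitted to 4 group means over all 8 arrays with an intensity trend (4 residual and 8.32 prior degrees of freedom), with two-sided tests and Benjamini-Hochberg adjustment over all genes. The fit was tested on simulated data. The members and gene lists were chosen with earlier results of these data known. Besides members and flanking genes, at most 4 called genes per list and contrast were named by size, with others given as one of a count, and up to 3 genes of highest correlation per member. Leaving out arrays, another normalization, filter, gene summary or shrinkage, a replicate block and a female-share covariate were tried.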

Additional observations from a re-analysis of the deposited data

Results flagged for a closer look

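Slamf1 was singled out because its genotypes did not overlap in either subset and lay in opposite order in Th17 and Th1 cells. Non-overlap held for 32.9% of all genes in Th17 and 33.3% in Th1 cells, and the share meeting the whole rule was not counted. The values below are those that met the rule, so they are no separate support. Both Tet2-deficient arrays were below both wild-type arrays in Th17 cells (10.28 and 10.14 against 10.60 and 10.52) and above them in Th1 cells (10.21 and 10.25 against 10.19 and 10.14). The Th17 effect minus the Th1 effect was -0.41 on the log2 scale (unadjusted p = 0.0299, limma adjusted p = 0.999 over all genes), so the difference did not pass, and the Th1 difference alone was 0.06 (95% interval -0.20 to 0.32). It lay between -0.48 and -0.34 with each array left out in turn and was -0.35 with the female share as a covariate.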

How the results depend on the processing

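Of 12 member differences called, with 199 alternatives in all, 174 stayed called in the same direction, 25 were no longer called and 0 reversed. Slamf6 stayed called throughout. The cause of the changes below was not tested.

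Counts over all genes moved as follows. Between genotypes, Th1 cells gave 0 in place of 1 with only the compared arrays or all probe sets, Th17 cells 1 in place of 0 with the signal filter, and the average 1 in place of 0 after quantile normalization. Th17 against Th1 in Tet2-deficient cells gave 1001 with all probe sets and 726 with the female share, in place of 2015. In wild-type cells it gave 1101 with only the compared arrays and 599 with all probe sets, in place of 1675, and averaged it gave 2054 with the female share in place of 4417. Member counts were 5 in place of 3 in wild-type cells with the filter or centring, and 3 in place of 5 on average with all probe sets, quantile normalization or the female share.

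With each array left out, all-gene counts between genotypes ran from 0 to 2 in Th1 cells, 0 to 4 in Th17 cells, 0 to 5 on average and 0 to 4 for the difference, the highest in Th17 cells, on average and for the difference coming without Tet2-deficient Th17 replicate 1. Between subsets they ran from 801 (without that same array) to 2335 in Tet2-deficient cells, from 663 (without wild-type Th17 replicate 2) to 1551 in wild-type cells and from 2651 to 4459 on average. In Tet2-deficient cells each of its 4 arrays lowered the count by over 1.5 times (801 to 1204), and in wild-type cells wild-type Th1 replicate 1 did too (1029). Member counts stayed 0 between genotypes and ran from 2 to 4 in Tet2-deficient cells, 2 to 3 in wild-type cells and 3 to 5 on average.

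Values that changed sign were none of them called. With centring Slamf7 had 0.00 between genotypes in Th1 cells, and Sh2d1a and Slamf1 had 0.04 and 0.03 between subsets in Tet2-deficient cells. With the female share these were 0.39 and 0.08, and Sh2d1a had 0.09 on average. With arrays left out, genotype differences ran for Slamf7 from -0.07 to 0.11 (Th1), -0.36 to 0.13 (Th17), -0.17 to 0.08 (mean) and -0.38 to 0.11 (difference), and for Cd244 from -0.09 to 0.09, -0.18 to 0.01, -0.09 to 0.00 and -0.18 to 0.01 in that order. They ran from -0.06 to 0.08 for Ly9 and -0.02 to 0.07 for Cd84 in Th17 cells, -0.11 to 0.04 for Cd48 on average and -0.14 to 0.07 for the difference of Slamf6. Between subsets in Tet2-deficient cells Sh2d1a ran from -0.29 to 0.28 and Slamf1 from -0.09 to 0.05.

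Same-numbered arrays did not deviate together (r between -0.19 and 0.06), so the numbers were not taken as pairs. With the replicate block 3 members in place of 4 were called in Tet2-deficient cells (Cd48 adjusted p = 0.0548), with 1767 genes, and 3 and 5 members stayed called in wild-type cells and on average, with 1398 and 4050 genes.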
